A study of Mus musculus with 2 samples.

Results

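The aminoacyl-tRNA synthetases, or tRNA ligases, were followed across the intestinal epithelium of mice with and without the MG53 transgene. The set held 35 genes of the 32285 in the deposited tables, 19 that encode cytosolic or shared enzymes and 16 that encode mitochondrial enzymes. Members were taken by gene symbol, the mitochondrial enzymes being those whose symbol ends in 2, and the set was chosen on measured values of these same libraries. Differences between genotypes are therefore given as a description. All 35 members passed a minimum of 30 unique molecular identifiers (UMIs, which count captured mRNA molecules) over both libraries.

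A tRNA ligase couples an amino acid to its tRNA, so that the ribosome can place that amino acid at the right codon. The cytosolic enzymes feed protein synthesis on cytosolic ribosomes, and a separate group, encoded in the nucleus and imported, charges tRNAs for the proteins encoded in mitochondrial DNA. Several of the cytosolic enzymes sit together in a multisynthetase complex held by 3 scaffold proteins. When uncharged tRNA accumulates or the endoplasmic reticulum is stressed, eIF2 alpha is phosphorylated and translation of the transcription factor Atf4 rises. Atf4 is known to induce many cytosolic ligase genes together with genes of amino acid synthesis and uptake. In the gut these enzymes serve both the rapidly dividing crypt and the secretory cells that export large amounts of protein.

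To compare the genotypes, 2 single-cell RNA-seq libraries of sorted 7-AAD-EpCAM+ intestinal cells were used, 1 from wild type littermates (WT) and 1 from mice with global MG53 overexpression (MG53-TG). Both groups had received 2.5% dextran sulfate sodium (DSS), which injures the gut lining, and cells were taken on day 7. MG53, encoded by Trim72, is a membrane repair protein of muscle. Each genotype group held several mice, and no barcode is tied to an animal. The driver of the transgene and the age of the mice are not given in the sources used here.

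After a common filter, 6119 epithelial WT cells with 106041896 UMIs and 4606 epithelial MG53-TG cells with 89935487 UMIs remained, with medians of 15666 and 18654.5 UMIs per cell. Trim72 had 63 UMIs in the WT sum and 4569 in the MG53-TG sum, as the labels give. The libraries shared 8 barcodes. T cell clusters made up most of the other cells, and the 12 T cell markers summed to 55.6 and 26.6 UMIs per 1000000 UMIs (CPM) within the epithelial sums, against 88825 and 94612 CPM in the T cell clusters. Program version and barcode filtering by the authors coincided with genotype and cannot be told apart from it. With 1 library per genotype there is no replicate and no test, so every interval below is a 95% interval of counting error only.

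Values are UMIs of a gene summed over the cells of a group, as CPM of all UMIs in those cells. The 3′ kit tags each captured molecule once, so CPM was not divided by gene length. Log2 ratios set MG53-TG over WT, and 1.3-fold is a log2 ratio of 0.38.

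In the epithelial sum, 8 of 19 cytosolic members were at least 1.3-fold higher in MG53-TG and 0 were at least 1.3-fold lower. None of the 16 mitochondrial members differed by 1.3-fold in either direction in this sum, although Nars2 was 1.3-fold lower under 4 of 13 alternatives (-0.40 to -0.52). Over all 14656 genes with at least 30 UMIs, 14.5% were at least 1.3-fold higher and 6.06% were at least 1.3-fold lower. The median log2 ratio was 0.35 for the cytosolic members and -0.13 for the mitochondrial members, beside 0.09 for all genes. The 19 cytosolic members summed to 1373 CPM in WT against 1828 in MG53-TG, a log2 ratio of 0.41 (95% interval 0.40 to 0.42). The 16 mitochondrial members summed to 449.4 and 442.8 CPM, a log2 ratio of -0.02.

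**Figure D1:**
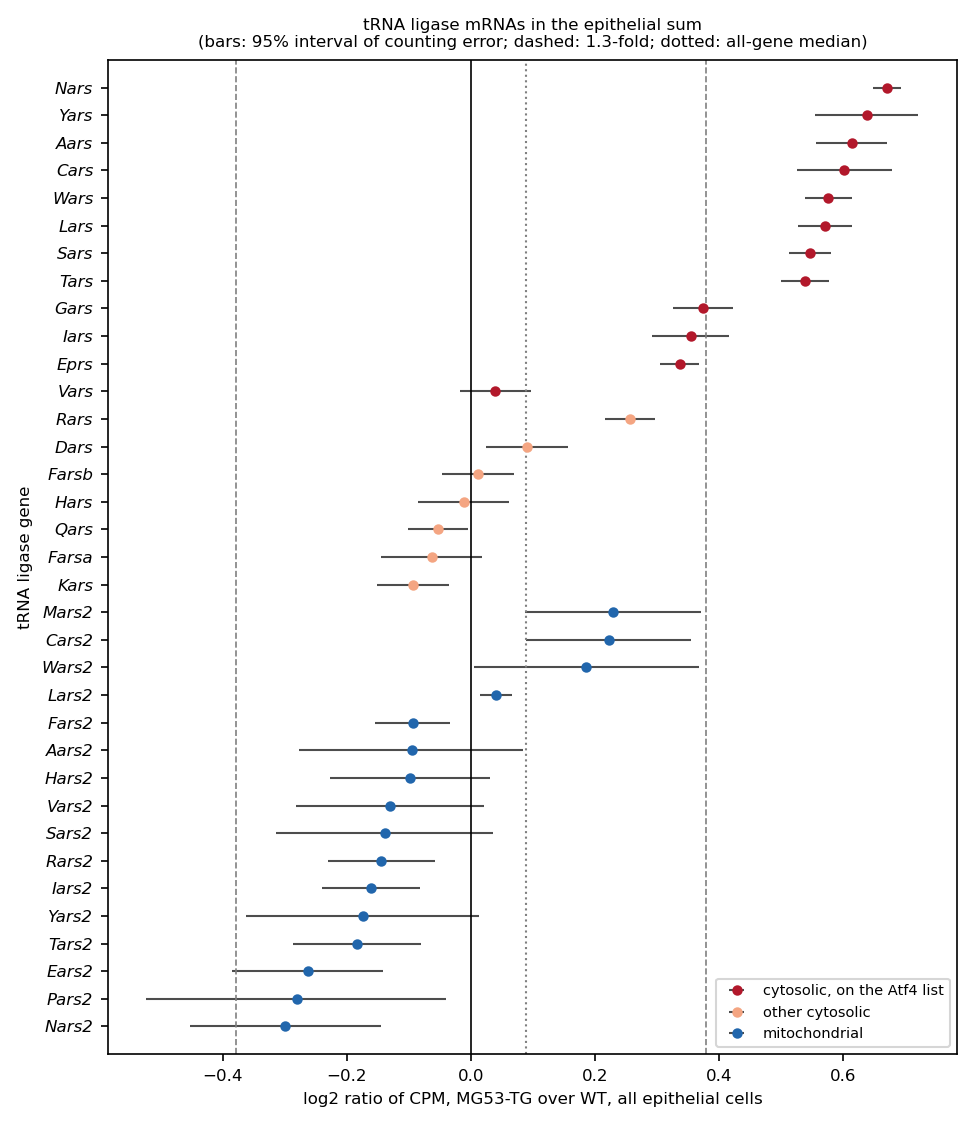
Log2 ratio of CPM (MG53-TG over WT, x axis) of each of the 35 tRNA ligase genes (y axis) in the sum of all epithelial cells, with 95% intervals of counting error as bars, 1.3-fold as dashed lines and the median of all genes as a dotted line. The 8 genes right of the 1.3-fold line are all cytosolic and on the list of reported Atf4-induced ligases, and no mitochondrial gene reaches either line.

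Nars, the asparagine ligase, had the largest log2 ratio of the 35. It stood at 254.9 CPM in WT (27026 UMIs) against 405.6 CPM in MG53-TG (36482 UMIs), a log2 ratio of 0.67 (0.65 to 0.69). Nars was also the most abundant cytosolic member in both libraries, with 18.6% of the cytosolic UMIs in WT and 22.2% in MG53-TG.

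Yars, the tyrosine ligase, was the least abundant cytosolic member in WT and had the next largest ratio, with 19.4 CPM in WT against 30.1 in MG53-TG (log2 ratio 0.64, 0.55 to 0.72). Aars, the alanine ligase, stood at 40.7 and 62.2 CPM (0.61, 0.56 to 0.67). Cars, the cysteine ligase, stood at 23.1 and 35.1 CPM (0.60, 0.52 to 0.68). The level of a member in WT therefore did not order the ratios, since the most and the least abundant of the 19 were next to each other in rank.

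Wars, the tryptophan ligase and a known interferon target, stood at 94.5 CPM in WT against 140.9 in MG53-TG (log2 ratio 0.58, 0.54 to 0.61). Lars, which charges leucine, stood at 72.1 and 107.1 CPM (0.57, 0.53 to 0.61). Sars, which charges serine and also the selenocysteine tRNA, stood at 119.0 and 173.8 CPM (0.55, 0.51 to 0.58). Tars, the threonine ligase, was the last member past 1.3-fold, with 92.3 and 134.0 CPM (0.54, 0.50 to 0.58).

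Just short of 1.3-fold were 3 further members. Gars, the glycine ligase, had 60.9 CPM in WT against 78.9 in MG53-TG, a log2 ratio of 0.37 (0.33 to 0.42). Iars, which charges isoleucine, had 38.7 and 49.4 CPM (0.35, 0.29 to 0.42). Eprs, a fused enzyme that charges glutamate and proline, had 146.0 and 184.3 CPM (0.34, 0.30 to 0.37). The intervals of Gars and Iars span 0.38, so counting error alone leaves their side of the 1.3-fold line undecided.

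The other 8 cytosolic members had log2 ratios from -0.09 to 0.26. Rars, the arginine ligase, was the highest of them, with 94.3 CPM in WT against 112.7 in MG53-TG (0.26, 0.22 to 0.30). Dars (aspartate), Vars (valine) and Farsb (a phenylalanine ligase subunit) had ratios of 0.09, 0.04 and 0.01, and Hars (histidine) and Qars (glutamine) of -0.01 and -0.05. Farsa, the catalytic partner of Farsb, stood at 26.1 and 24.97 CPM (-0.06, -0.14 to 0.02). Kars, which charges lysine in both compartments, was the lowest, with 51.8 and 48.6 CPM (-0.09, -0.15 to -0.04). Both subunits of the phenylalanine enzyme thus had intervals that include 0.

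Among the mitochondrial members, Lars2 (leucine) carried 56.4% of the summed UMIs in WT, with 253.6 CPM in WT against 260.8 in MG53-TG (log2 ratio 0.04, 0.02 to 0.07). Fars2 (phenylalanine) followed with 47.0 and 44.1 CPM (-0.09, -0.15 to -0.03), and Iars2 (isoleucine) with 28.4 and 25.4 CPM (-0.16, -0.24 to -0.08). The other 13 were rarer, down to 3.28 CPM for Pars2 in WT. Of the 16 members, 4 were above a ratio of 0 and 12 were below it, but with equal weight per named type 10 were above 0, and with equal weight per cluster 9 were.

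The 4 above 0 were Mars2 (methionine, 0.23), Cars2 (cysteine, 0.22), Wars2 (tryptophan, 0.19) and Lars2, whose ratio was -0.24 with at most 10% mitochondrial UMIs per cell and 0.65 with up to 50%. The lowest were Nars2 (asparagine), with 8.02 CPM in WT against 6.52 in MG53-TG (-0.30, -0.45 to -0.15), and Pars2 (proline), with 3.28 and 2.70 CPM (-0.28, -0.52 to -0.04). Ears2, which charges glutamate, had a ratio of -0.26. The remaining 9, which are Fars2, Aars2, Hars2, Vars2, Sars2, Rars2, Iars2, Yars2 and Tars2, lay between -0.18 and -0.09. A shortage of counts limits these genes, since Pars2 had 348 WT and 243 MG53-TG UMIs in all.

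By symbol, 12 cytosolic members had a mitochondrial counterpart of the same name ending in 2. Fars2, Ears2 and Pars2, whose cytosolic counterparts are Farsa with Farsb and the fused Eprs, were left out of these pairs. In all 12 pairs the cytosolic member had the higher log2 ratio, from 0.67 against -0.30 for Nars and Nars2 to -0.01 against -0.10 for Hars and Hars2. In 11 of the 12 pairs the cytosolic member was also the more abundant in WT, by 31.8-fold for Nars over Nars2 and by 1.36-fold for Iars over Iars2. Leucine was the exception among the 12, with Lars at 0.284 times the level of Lars2. Outside the pairs, Farsa at 26.1 CPM in WT was also below Fars2 at 47.0 CPM, whereas Farsb at 48.98 CPM was above it. With equal weight per named type or per cluster the cytosolic log2 ratio was the higher in 10 of the 12 pairs, and those of Hars and Wars were then below those of Hars2 and Wars2. The direction of each member's ratio was read from the same contrast that was in view when the set was chosen.

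The cytosolic members were then divided by what is known of them, in lists chosen with earlier results of these data known. The division is therefore a description and not a test. A list of 12 ligases reported as Atf4-induced held all 8 members past 1.3-fold, and the 12 had a median log2 ratio of 0.56, all above 0. Vars was the lowest of the 12, at 0.04. The other 7 cytosolic members had a median of -0.01, with 3 above 0 and 0 past 1.3-fold. Structural class did not divide them in this way, as 4 of 9 class I and 4 of 10 class II enzymes were past 1.3-fold, with medians of 0.35 and 0.23.

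Of the 7 members that belong to the multisynthetase complex, 1 was past 1.3-fold (Lars), and the median was 0.26. A count of 1 in a list of this size is near the 14.5% of all genes that were higher by that fold. Its scaffold genes had log2 ratios of 0.18 for Aimp1 (206.3 and 232.9 CPM), -0.19 for Aimp2 (32.2 and 28.3 CPM) and -0.13 for Eef1e1 (28.0 and 25.6 CPM). Genes of the same physical complex thus had ratios on both sides of 0, from 0.57 for Lars to -0.19 for Aimp2. Of the 6 ligase and amidotransferase genes outside the set, Mars, the cytosolic methionine ligase and also part of this complex, was past 1.3-fold, with 28.4 and 37.8 CPM (0.41, 0.34 to 0.48).

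Other genes of the Atf4 response were measured beside the ligases. Of 29 such genes, 20 were at least 1.3-fold higher in MG53-TG, 0 were lower by that fold, and the median was 0.63. Atf4 itself stood at 126.8 CPM in WT against 177.0 in MG53-TG (log2 ratio 0.48). Asns, which makes the asparagine that Nars uses, stood at 91.0 and 169.5 CPM (0.90, 0.86 to 0.93). The largest ratios belonged to Slc7a11, a subunit of the cystine importer (1.57 and 5.56 CPM, 1.83), the transcription factor Atf5 (28.8 and 74.7 CPM, 1.37) and Trib3, which restrains Atf4 (2.67 and 6.40 CPM, 1.26). The lowest were the transcription factor Cebpb (4.12 and 3.97 CPM, -0.05) and Ddit4, which restrains mTORC1 (23.6 and 24.9 CPM, 0.08).

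Chac1, which degrades glutathione, stood at 4.50 and 9.68 CPM (1.11), and Ddit3, a transcription factor of stressed cells, at 10.3 and 16.0 CPM (0.63). Eif2ak4, the kinase that senses uncharged tRNA, stood at 5.77 and 8.67 CPM (0.59, 0.43 to 0.74) and was the 1 gene past 1.3-fold of 8 eIF2 alpha kinases and partners, whose median was 0.31. The phosphatase subunits Ppp1r15a and Ppp1r15b followed at 0.37 and 0.35, and the kinase Eif2ak1 and the eIF2 alpha gene Eif2s1 were lowest, at 0.06 and 0.05. Xpot, which exports tRNA from the nucleus, stood at 20.5 and 25.8 CPM (0.33).

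Other parts of the translation machinery had ratios near 0. The 5 cytosolic elongation factors had a median log2 ratio of -0.03, the 9 mitochondrial translation factors -0.19, and the 10 genes of tRNA maturation and export -0.02, each with 0 genes past 1.3-fold. The elongation factors ran from 0.02 for Eef2 to -0.15 for Eef1g, and the mitochondrial factors from 0.13 for Gfm2 to -0.25 for Gfm1. The 77 Rpl and Rps genes and the 78 Mrpl and Mrps genes had medians of -0.07 and -0.09, also with 0 past 1.3-fold. The mitochondrial ligases, at -0.13, lay beside the mitochondrial translation factors and ribosomal proteins. Of 12 endoplasmic reticulum chaperone genes 8 were past 1.3-fold (median 0.45), and of 12 interferon response genes 11 were (median 0.84). These are values of the epithelial sum, in which 14.5% of all genes were higher by that fold, and they did not hold in every cell group. By group, the chaperone median ran from 0.03 in stem-like to 0.80 in Paneth-like cells. The interferon median ran from -0.15 in cluster 2 to 1.12 in cluster 20, with 0.21 in goblet-like cells. The chaperone list was led by Dnajb9 (0.66), Creld2 (0.61) and Pdia4 (0.55), with Sel1l (0.29) and Xbp1 (0.21) lowest. The interferon list was led by Ifit3 (1.12), Rsad2 (1.04) and Oasl2 (0.95), with Bst2 (0.43) and Irf1 (0.30) lowest. Whether these programs and the ligase values are linked was not tested.

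The response element to which Atf4 binds with a C/EBP partner can be written TGATGNAA, or TTNCATCA on the other strand, and RefSeq promoter windows were searched for it on both strands. A window ran from 250 bases before to 50 bases after a start, in build GRCm38.p6, and 26 of the 35 members had one. A match was found in 5 of the 26, against 4.51% of 27025 gene symbols. All 5 were on the Atf4 list, where 7 of 12 genes had a window. There was no match in the 14 mitochondrial windows or the 5 of the other cytosolic members. Matches of 4 members are shown with that of Asns, a textbook Atf4 target. The genes shown share the element because they were picked by the search for it, and most member windows held none. Capitals mark the match, each run reads 5′ to 3′ on the gene's strand, and the position of the first matching base is counted from the start base as 0.

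Gars: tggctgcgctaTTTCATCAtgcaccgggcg
Iars: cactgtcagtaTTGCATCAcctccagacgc
Tars: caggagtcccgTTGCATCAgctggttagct
Yars: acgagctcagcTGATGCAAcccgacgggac
Asns: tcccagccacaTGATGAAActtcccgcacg

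The Gars run lies at chr6:55037960-55037989 on the plus strand (match at -30), and Iars at chr13:49682126-49682155 on the plus strand (match at 7). Tars lies at chr15:11399655-11399684 on the minus strand (match at -15), and Yars at chr4:129189895-129189924 on the plus strand (match at 3). Asns lies at chr6:7693214-7693243 on the minus strand (match at -23). Iars and Tars share all 8 letters of the match, and Yars holds the same letters on the opposite strand, whereas the Gars match differs from them.

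The 4 genes shown did not all differ alike. Tars and Yars were past 1.3-fold, and Gars and Iars were just short of it. Sars, with a log2 ratio of 0.55, and Eprs, with 0.34, had a window and no match in it. No window was at hand for Nars, Lars, Cars or Wars, so 4 of the 8 members past 1.3-fold were not searched. Among the 29 Atf4 response genes, 8 of 26 with a window held a match.

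The cells were next divided into 11 groups by clustering in which the members and Trim72 took no part. Fixed markers named stem-like, absorptive progenitor-like, goblet-like, Paneth-like, enteroendocrine-like and tuft-like cells, and 6 types were compared as such. Enterocyte-like clusters 2, 15 and 18 and secretory progenitor-like clusters 9 and 20 were compared one by one, because the leading genes of clusters 2, 18 and 9 held more markers of another type than of their own. Cluster 5, a shallow cluster of 253 WT and 99 MG53-TG cells, stayed unnamed and is in none of the 11 groups, but entered the epithelial sum and the values by cluster. Composition differed between the libraries, with 1270 goblet-like cells of 6119 in WT and 1578 of 4606 in MG53-TG.

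Higher values in MG53-TG in all 11 groups were found for 8 of the 19 cytosolic members and 0 of the 16 mitochondrial members, against 2.88% of the 10172 genes with a UMI in each group of both libraries. These 8 were Aars, Cars, Eprs, Iars, Lars, Nars, Sars and Yars. Over the 21 epithelial clusters taken singly, only Cars and Lars of the 35 members were higher in every one. Within cluster 0, the larger of the Paneth-like clusters, Aars stood at 18.8 and 17.7 CPM and Nars at 66.1 and 67.0 CPM. Nars and Lars had intervals above 0 in each of the 11 groups. Tars was higher in 10 of 11, the exception being cluster 20 (161 and 154 CPM, -0.06, -0.30 to 0.18).

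**Figure D2:**
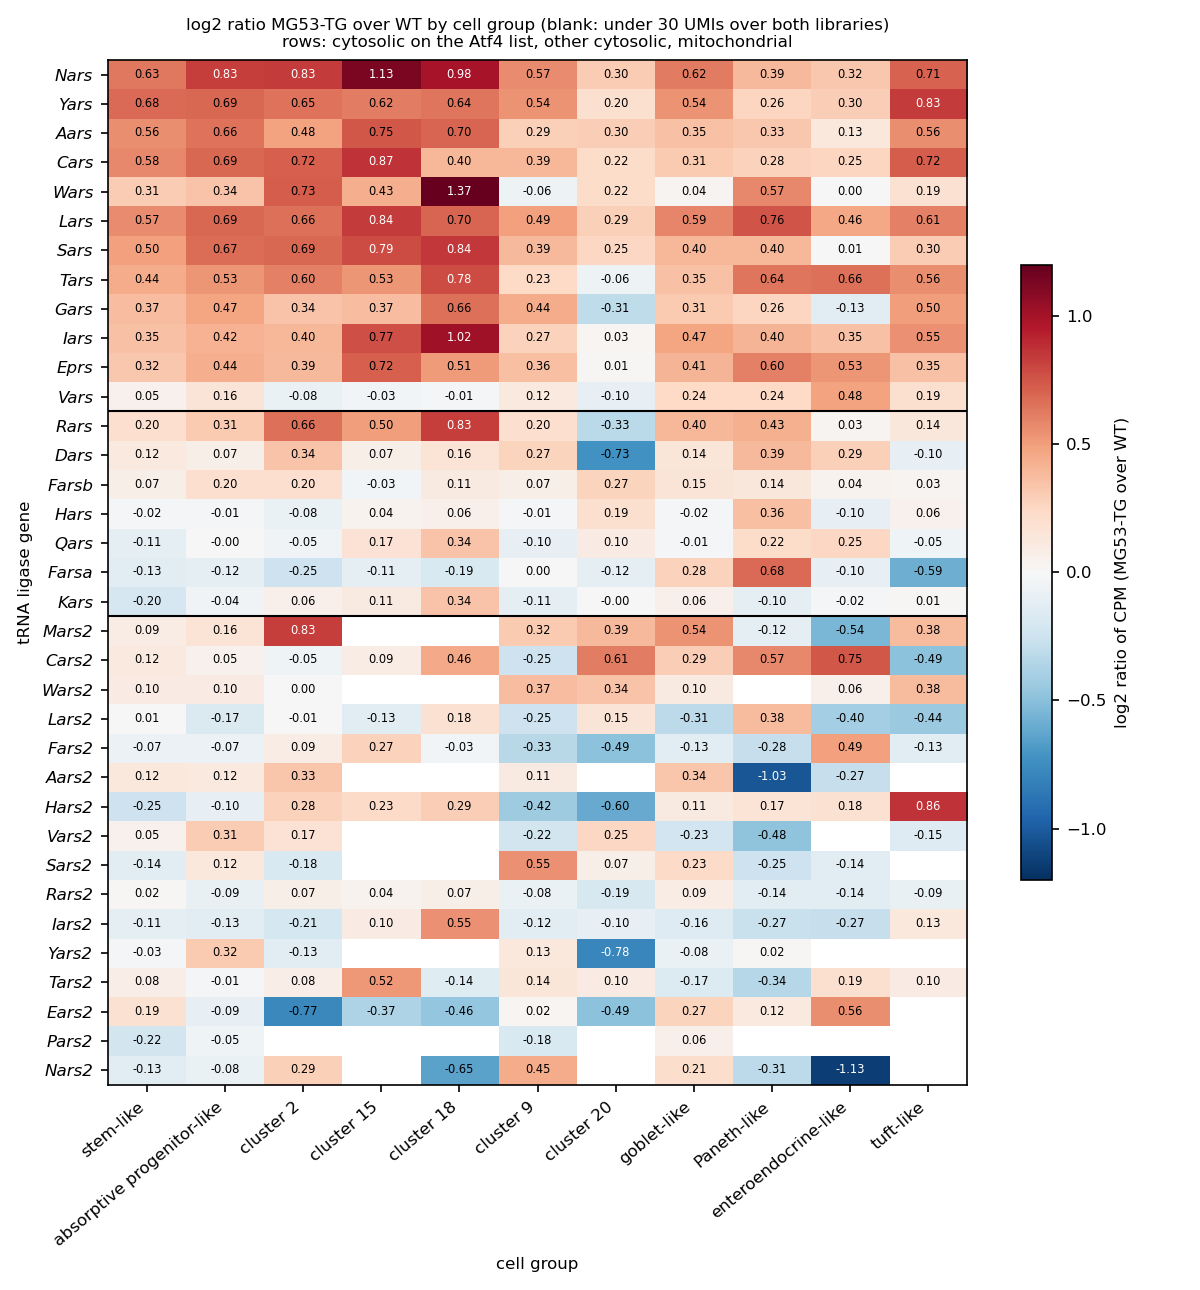
Log2 ratio of CPM (MG53-TG over WT, color and number) of the 35 tRNA ligase genes (rows) in 11 cell groups (columns), with cells blank where a gene had under 30 UMIs over both libraries. Nars and Lars are positive in every column, the lower block of mitochondrial genes has mixed signs, and cluster 20 is paler than the other columns for the cytosolic genes.

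The Nars ratio varied along the epithelium. It was 0.63 in stem-like cells (304 and 471 CPM), 0.83 in absorptive progenitor-like cells (352 and 626 CPM), and 0.83, 1.13 and 0.98 in clusters 2, 15 and 18. In cluster 15, Nars stood at 245 CPM in WT against 536 in MG53-TG (1.02 to 1.24). It was 0.57 in cluster 9, 0.30 in cluster 20, 0.62 in goblet-like, 0.39 in Paneth-like, 0.32 in enteroendocrine-like and 0.71 in tuft-like cells. The intervals of the absorptive progenitor-like cells (0.79 to 0.87) and the goblet-like cells (0.56 to 0.68) did not overlap.

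Lars ran from 0.29 in cluster 20 (125 and 152 CPM) to 0.84 in cluster 15 (26.2 and 46.9 CPM), with 0.57 in stem-like, 0.69 in absorptive progenitor-like and 0.59 in goblet-like cells. Yars ran from 0.20 in cluster 20 to 0.83 in tuft-like cells (18.0 and 32.1 CPM). It was 0.68 in stem-like, 0.69 in absorptive progenitor-like and 0.54 in goblet-like cells. Of the 11 intervals of Yars, 8 lay above 0.

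Aars ran from 0.13 in enteroendocrine-like cells (53.3 and 58.3 CPM, -0.25 to 0.51) to 0.75 in cluster 15 (45.0 and 75.6 CPM), and Cars from 0.22 in cluster 20 to 0.87 in cluster 15 (22.9 and 41.8 CPM). Sars was almost equal in enteroendocrine-like cells (169 and 170 CPM, 0.01, -0.21 to 0.22) and ran up to 0.84 in cluster 18 (109 and 196 CPM). Tars was 0.66 in enteroendocrine-like cells (55.5 and 88.0 CPM, 0.33 to 1.004), the group in which Sars and Aars were near 0. The order of these members thus changed from group to group.

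Wars behaved unlike the others past 1.3-fold. It stood at 307 and 315 CPM in goblet-like cells (0.04, -0.01 to 0.09) and at 293 and 281 CPM in cluster 9 (-0.06, -0.15 to 0.03). In clusters 2 and 18 it stood far lower, at 14.0 and 23.2 CPM (0.73) and at 8.44 and 21.8 CPM (1.37, 0.75 to 2.03). The ratio of 0.58 in the epithelial sum was larger than that in 9 of the 11 groups, and with each cluster given equal weight it was 0.06. Goblet-like cells, where Wars was highest, made up a larger share of the cells in MG53-TG than in WT, as given above. Goblet-like cluster 23, led by the interferon genes Ifi44, Ifit1 and Isg15, had 381 CPM of Wars in WT and 389 CPM in MG53-TG.

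By group, the cytosolic members at least 1.3-fold higher numbered 7 of 19 in stem-like cells (8.02% of all genes there) and 10 in absorptive progenitor-like cells (9.12%). They numbered 11 in cluster 2 (10.8%), 11 in cluster 15 (13.2%) and 12 in cluster 18 (19.8%). The secretory groups had 6 in cluster 9 (7.89%), 0 in cluster 20 (15.6%), 7 in goblet-like cells (6.69%), 10 in Paneth-like cells (27.7%) and 4 in enteroendocrine-like cells (11.1%), and tuft-like cells had 8 (14.1%). Cluster 20, the cycling secretory cluster, stood below its background, and it also held the largest drop of a cytosolic member, Dars, with a log2 ratio of -0.73 (-1.17 to -0.27). Between 8 and 16 mitochondrial members had at least 30 UMIs in a group. Those at least 1.3-fold higher numbered 0 to 3, with the most in enteroendocrine-like cells (3 of 13, beside 11.1% of all genes). Those at least 1.3-fold lower numbered 0 to 4, with the most in cluster 20 (4 of 13). The share of all genes lower by that fold was not taken by group.

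The summed cytosolic level was highest in cluster 20 among the 11 groups in both libraries, although its MG53-TG counting interval overlapped that of stem-like cells. MG53-TG clusters 12 and 4, which were pooled into types, stood higher when taken singly, at 2415 and 2412 CPM. In WT the sum was 2103 CPM in cluster 20, 1723 in cluster 9, 1719 in stem-like, 1527 in goblet-like, 1502 in absorptive progenitor-like, 1275 in cluster 2 and 1272 in enteroendocrine-like cells. It was 1048 CPM in cluster 18, 922.7 in tuft-like cells, 792.0 in cluster 15 and 520.9 in Paneth-like cells. In this order, 3 pairs of neighbours had overlapping counting intervals, namely cluster 9 and stem-like cells, goblet-like and absorptive progenitor-like cells, and cluster 2 and enteroendocrine-like cells.

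In MG53-TG the sums were 2229 CPM in cluster 20, 2180 in stem-like, 2130 in absorptive progenitor-like, 2048 in cluster 9, 1903 in goblet-like and 1897 in cluster 2 cells. They were 1778 CPM in cluster 18, 1445 in enteroendocrine-like, 1330 in cluster 15, 1174 in tuft-like and 703.2 in Paneth-like cells. Among neighbours in this order, counting intervals overlapped for cluster 20 and stem-like, stem-like and absorptive progenitor-like, and goblet-like and cluster 2 cells. The ratios were thus largest in the enterocyte-like clusters, with 0.57 in cluster 2, 0.75 (0.68 to 0.81) in cluster 15 and 0.76 (0.70 to 0.82) in cluster 18. They were smallest in cluster 20 (0.08, 0.02 to 0.15) and enteroendocrine-like cells (0.18, 0.11 to 0.26). The distance in summed cytosolic level between stem-like cells and cluster 18 was therefore smaller in MG53-TG, since the lower WT level went with the larger ratio.

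**Figure D3:**
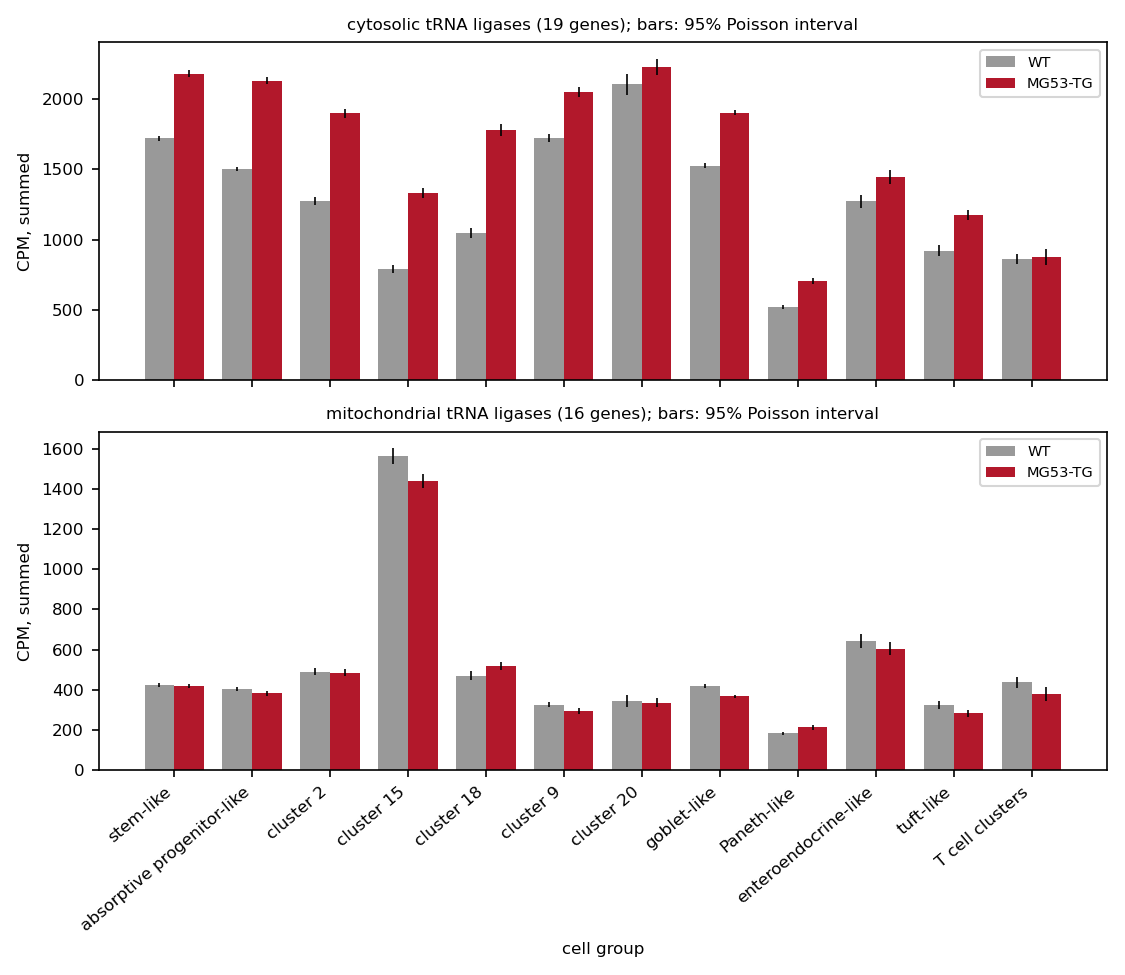
Summed CPM (y axis) of the 19 cytosolic (top) and 16 mitochondrial (bottom) tRNA ligases in 11 epithelial cell groups and the T cell clusters, with WT in gray and MG53-TG in red, 1 library each, and 95% Poisson intervals as bars. The red bar is the taller one for the cytosolic genes in all 11 epithelial groups, and cluster 15 stands above the other groups for the mitochondrial genes.

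For Paneth-like cells the mix of clusters differed between the libraries. Cluster 0 held 236 of the 302 WT cells and 92 of the 173 MG53-TG cells, and cluster 17 held the other 66 and 81. Within cluster 0 the cytosolic sum was 451.3 CPM in WT against 437.7 in MG53-TG, and within cluster 17 it was 1366 and 1576 CPM. The Paneth-like log2 ratio of 0.43 therefore went with a change in the mix of these clusters.

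T cells sorted along with the epithelium gave a comparison from the same libraries. In 798 WT and 317 MG53-TG cells, the cytosolic sum was 860.3 and 874.9 CPM, a log2 ratio of 0.02 (-0.09 to 0.13), against 0.41 in the epithelial sum. Nars stood at 75.2 and 86.9 CPM there (0.21), Sars at 113.4 and 111.8 CPM (-0.02) and Lars at 63.6 and 62.8 CPM (-0.02). Aars was the exception, with 21.6 and 38.7 CPM (0.84, 0.23 to 1.45) from 52 and 45 UMIs. The depth in T cells was much lower, with 2071 and 1017 cytosolic UMIs in all.

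Several members marked particular cells. Gars reached 204 CPM in WT against 186 in MG53-TG in enteroendocrine-like cells, against 60.9 and 78.9 CPM in the epithelial sum. Fars2 was also highest there, with 144 and 202 CPM (0.49, 0.28 to 0.70), and so was Nars2, with 48.9 and 22.4 CPM (-1.13, -1.66 to -0.62). Nars2 in enteroendocrine-like cells was the largest drop with an interval below 0 of any member in any group, while its cytosolic partner Nars had a ratio of 0.32 in the same cells. Within the type, Nars2 was highest in cluster 8, with 118 and 65.97 CPM. Ears2 was highest in clusters 2 and 18, with 28.5 and 27.6 CPM in WT, and had log2 ratios of -0.77 and -0.46 there.

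**Figure D4:**
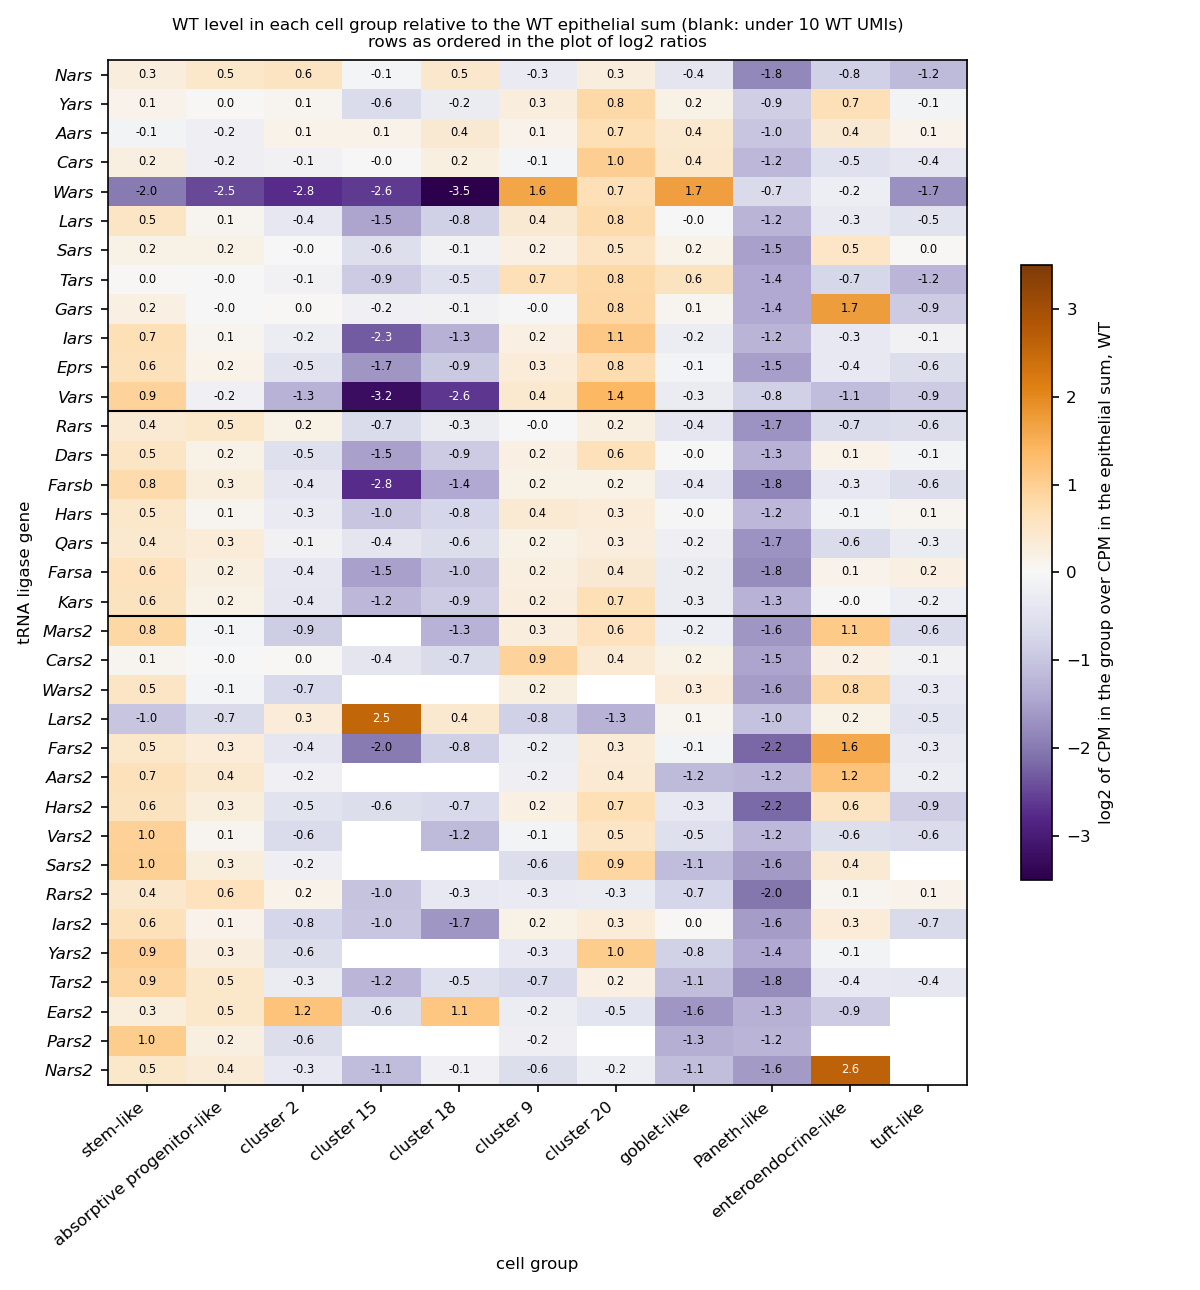
WT level of each of the 35 tRNA ligase genes (rows) in 11 cell groups (columns), as the log2 of CPM in the group over CPM in the WT epithelial sum (color and number), with cells blank under 10 WT UMIs. Wars is high in goblet-like cells and cluster 9, Gars, Fars2 and Nars2 in enteroendocrine-like cells, Lars2 in cluster 15, and almost every gene is low in Paneth-like cells.

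Lars2 followed a pattern of its own. Its WT level was 126 CPM in stem-like cells and 104 CPM in cluster 20, but 1482 CPM in cluster 15 and 2314 CPM in the unnamed cluster 5. Both of these clusters were shallow, with WT medians of 4676 and 3341 UMIs per cell, and cluster 15 had 13.0% mitochondrial UMIs. Gm42418, a gene that overlaps ribosomal RNA sequence, was likewise high there, at 58943 CPM in cluster 15 and 93424 CPM in cluster 5, against 14894 CPM in the WT epithelial sum. In the MG53-TG epithelial sum Gm42418 stood at 12380 CPM (log2 ratio -0.27), and it was higher in MG53-TG in 1 of the 11 groups. In WT barcodes under 100 UMIs, which hold mostly free RNA, Lars2 stood at 1114 CPM, whereas the other 34 members had 0.589 to 1.38 times their level in cells.

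Over the 21 epithelial clusters, the Spearman correlation of Lars2 with Gm42418 was 0.86 in WT and 0.88 in MG53-TG. That with the summed cytosolic members was -0.54 in WT and -0.41 in MG53-TG. These are descriptions over 21 clusters that share a library, the free RNA in it and differences in depth. Without Lars2 the mitochondrial members summed to 195.8 CPM in WT against 182.0 in MG53-TG. How much of the Lars2 signal is Lars2 mRNA was not tested.

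**Figure D5:**
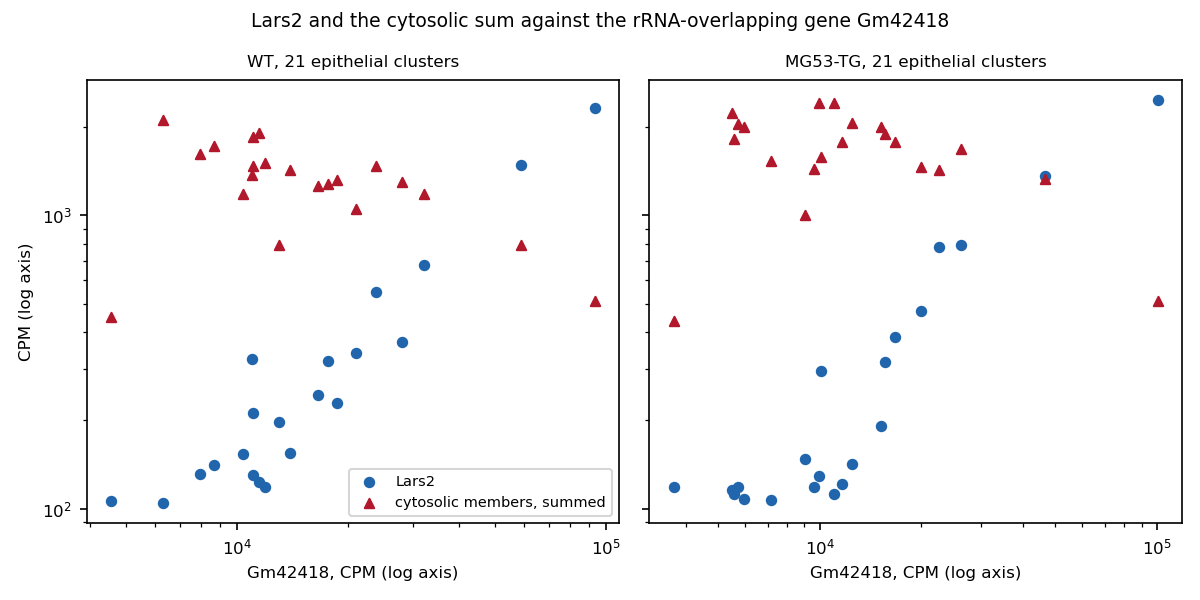
CPM of Lars2 (blue circles) and of the summed cytosolic members (red triangles) against CPM of the rRNA-overlapping gene Gm42418 in the 21 epithelial clusters of WT (left) and MG53-TG (right), both axes logarithmic. Lars2 rises with Gm42418, to 2314 CPM in WT at the right edge, and the cytosolic sum does not.

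Most other members rose and fell over these 21 clusters with their own set. Against the sum of the other cytosolic members, the Spearman correlation was 0.87 for Tars, 0.86 for Eprs and 0.84 for Lars in WT, and 0.84, 0.81 and 0.86 in MG53-TG. Against the other mitochondrial members without Lars2, it was 0.93 for Aars2 and 0.89 for Sars2 in WT, and 0.92 and 0.87 in MG53-TG. Wars (0.01 and -0.09) and Aars (0.12 and 0.11) had the lowest values of the 19 cytosolic members, so these genes were apart from their set in level. Nars (0.31 and 0.39) and Cars (0.38 and 0.40) came next. Of the mitochondrial members besides Lars2, Ears2 was lowest in WT (0.39) and Cars2 in MG53-TG (0.47).

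Some values carry an uncertainty of position. In the mm10 annotation, 13 of the 35 members overlap another listed gene, and strand use in counting is not stated. These include Aars, which overlaps Exosc6 on its own strand, Yars (chr4:129189760-129219607) with C77080 on the opposite strand, and Wars (chr12:108860030-108894174) with Wdr25. Hars and Hars2 overlap each other head to head. Nars, Cars, Lars, Sars and Tars overlap no other listed gene.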

How the data were processed

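Single-cell RNA-seq of sorted mouse intestinal epithelial cells, 1 WT and 1 MG53-TG library, was analysed. The authors deposited UMI counts per gene and barcode, not scaled, made with Cell Ranger (version 4 for WT and 6.0.1 for MG53-TG in the file headers). The genome was mm10 and Seurat is named in the submitters' notes. The WT table held empty droplets, whereas the lowest MG53-TG barcode had 500 UMIs. Read handling for multimapping and strand is not given in the sources used here.

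Kept barcodes had 1354 UMIs or more, no fewer than 200 genes, and mitochondrial UMIs of up to 25%. The last limit removed 3755 of 11156 WT and 4402 of 9555 MG53-TG barcodes. The highest Scrublet scores, 0.8% per 1000 cells, were removed as doublets (438 and 212 cells). Cells were clustered with scanpy 1.11.5 (2000 variable genes without the members and Trim72, 30 components, 15 neighbours, Leiden at resolution 1) into 26 clusters, 21 of them epithelial. A cluster was named from at least 3 markers detected in 10% of its cells at 1.5 times the level of other cells.

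Counts were summed per library and group and given as CPM, with exact Poisson intervals for levels and exact conditional binomial intervals for log2 ratios, tested on simulated data. No test between genotypes was made. Named were the members past 1.3-fold with 1 direction in every named type, the 3 most abundant and the 2 lowest ratios of each set, and Gars, Kars, Wars, Eprs and Lars2. The rule for other lists was the 3 largest and 2 lowest ratios among genes with at least 100 UMIs, besides a fixed few. It was followed in full for the Atf4, chaperone and interferon lists, and the others are given by counts, medians and selected genes. The members and lists were chosen with earlier results of these data known. Alternatives covered scaling, weighting, thinning, filters, doublets and clustering genes. Promoter windows and annotation came from RefSeq (GRCm38.p6) and GENCODE. The sequence of 1 promoter match and the values of 1 gene outside the set are not reported here.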

Additional observations from a re-analysis of the deposited data

Results flagged for a closer look

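For 7 members, 2 cell groups had log2 ratios with counting intervals on opposite sides of 0, although the difference between the groups was not tested and some such pairs arise by chance among 35 genes and 11 groups. Dars was 0.39 in Paneth-like cells and -0.73 in cluster 20. Farsa was 0.68 in Paneth-like and -0.59 in tuft-like cells. Gars was 0.66 in cluster 18 and -0.31 in cluster 20, where the upper end of its interval almost reached 0. Qars was 0.34 in cluster 18 and -0.11 in stem-like cells, and Rars was 0.83 in cluster 18 and -0.33 in cluster 20. Fars2 was 0.49 in enteroendocrine-like cells and -0.49 in cluster 20. Lars2 was 0.38 in Paneth-like and -0.44 in tuft-like cells. The Paneth-like ratios of Dars, Farsa and Lars2 went with a different mix of clusters 0 and 17 in the libraries. Within cluster 0 they were -0.31, 0.01 and 0.16, and within cluster 17 they were 0.27, 0.49 and -0.14. Cluster 20 was the lower group in 4 of the 7 and is small, with 58 WT and 105 MG53-TG cells.

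A signal also appeared in WT barcodes outside the cell filter. Lars2 stood at 1114 CPM in WT barcodes under 100 UMIs, against 253.6 CPM in WT epithelial cells. Gm42418 stood at 99561 CPM in those barcodes and 14894 CPM in cells. The MG53-TG table had no barcodes under 500 UMIs, so the same value could not be taken there.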

How the results depend on the processing

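The counts and medians were recomputed under 13 alternatives, of which the equal weight per cluster was added after the data were seen. The count of cytosolic members at least 1.3-fold higher lay between 7 and 9 under all 13. The count of mitochondrial members higher by that fold was 2 instead of 0 with cells thinned to the UMI minimum (Cars2 and Mars2) and 1 with up to 50% mitochondrial UMIs (Lars2, at 0.65). On the lower side it was 3 instead of 0 with thinned cells (Pars2 at -0.70, Aars2 at -0.62 and Sars2 at -0.50) and 2 under median-of-ratios scaling (Nars2 at -0.40 and Pars2 at -0.38). It was 1, Nars2, with the mean of single-cell CPM (-0.47) and equal weight per named type (-0.52) or per cluster (-0.45). The median log2 ratio of the cytosolic members, 0.35, became 0.25 under median-of-ratios scaling, 0.29 with equal weight per named type, 0.27 with equal weight per cluster, 0.27 with thinned cells and 0.29 with up to 50% mitochondrial UMIs. That of the mitochondrial members, -0.13, became 0.056 with equal weight per named type and 0.0095 with equal weight per cluster. Of the 12 pairs of cytosolic and mitochondrial genes, the cytosolic one was higher in 10 under both weightings (not Hars and Wars), in 11 with thinned cells (not Hars) and in 10 with up to 50% mitochondrial UMIs (not Hars and Lars). Median-of-ratios scaling moved every log2 ratio by the same shift, to 0.57 for Nars and 0.27 for Gars. Of 455 single-gene values, 343 stayed within the main counting interval, 112 left it, and 0 of the members past 1.3-fold changed sign. Nars, Yars, Aars, Cars, Lars and Sars stayed past 1.3-fold throughout, whereas Tars fell to 0.36 with equal weight per cluster and Wars to 0.07 and 0.06 with equal weight per type and per cluster. No paired analysis was possible because each genotype has 1 library. Counting error leaves differences between mice, preparations and runs unmeasured, and rare mitochondrial members had too few UMIs to resolve small differences by cell group.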

Other observations

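The mitochondrial limit bore on Lars2 more than on the other members. With up to 50% mitochondrial UMIs allowed, its log2 ratio was 0.65 instead of 0.04, and with at most 10% it was -0.24. With up to 50%, Nars changed from 0.67 to 0.64 and Lars from 0.57 to 0.49. Barcodes over the limit of 25% were 3755 of 11156 in WT and 4402 of 9555 in MG53-TG. Whether they are damaged cells or a cell state was not tested.

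Free RNA and cell levels were set side by side for WT. The 34 members besides Lars2 had a median of 0.783 times their cell level in barcodes under 100 UMIs, and the cytosolic sum stood at 984.4 CPM there against 1373 CPM in cells.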
